A study of Mus musculus with 2 samples.

Results

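Cd8a, Cd8b1, Cd3d, Cd3e, Cd3g, Cd247, Lck, Zap70, Lat and Trat1 encode the CD8 coreceptor, the CD3 and zeta chains and the first kinases and adaptors of T cell receptor (TCR) signalling. Their transcripts were compared between splenic CD8+CD122+ and CD8+CD122- cells that had been sorted from mice of the strain C57BL/6. CD122, the product of Il2rb, is a receptor chain through which T cells bind interleukin 2 or 15. The sources used here name no transgene, treatment, age or sex for either population, nor how many mice gave cells, and they give no bounds for the sort gates. Messenger RNA was amplified, and 2 Agilent arrays each took both populations in different dyes. On array 1 (replicate 1) Cy5 marked CD8+CD122+ RNA while Cy3 marked CD8+CD122- RNA, and array 2 (replicate 2), a second trial, had the dyes exchanged. Whether new mice gave the cells of the second trial is not stated. Each p-value therefore measures the spread between these 2 arrays, which limma draws towards the spread over all probes, and nothing wider. The members were the probes whose gene name in the scanner file of either array is one of the 10 symbols, which gave 13 probes of 8 genes among 41174 probes. Cd247 and Trat1 were not found that way. In the file of array 2 they are called Cd3z and Tcrim, and a further Cd247 probe is called 4930549J05Rik. An earlier symbol or an accession in RefSeq gave 7 more probes, counted apart below. Of the 20 probes, 19 were tested because they stood well above background on each array in the same population or in both, among them all 13 found by file name.

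The TCR binds peptide on major histocompatibility complex (MHC) molecules but has no signalling domain of its own. It is assembled with the CD3 gamma, delta and epsilon chains and the zeta chain, whose cytoplasmic tails carry tyrosine motifs. In CD8 T cells the CD8 alpha and beta chains bind MHC class I and bring the kinase LCK to the receptor. LCK phosphorylates the tyrosine motifs, ZAP70 docks there and phosphorylates the adaptor LAT, and LAT gathers the proteins that pass the signal on. TRAT1, also called TRIM, is a transmembrane adaptor that associates with the TCR and zeta chains.

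By their brightest probes, Trat1, Cd8b1, Cd8a, Cd247, Cd3g and Lat were on both arrays lower in CD8+CD122+ cells, after loess normalisation, although with median centring Cd8b1, Cd8a and Cd3g turned above 0 on array 1; Cd3e, Cd3d, Lck and Zap70 lay near 0 or differed in sign between the arrays. Ratios are log2 of CD8+CD122+ over CD8+CD122-, so a value below 0 is lower in CD8+CD122+ cells. Of the 13 probes found by file name, 10 were below 0 on both arrays, 0 were above 0 on both and 3 had opposite signs. Over all 30794 probes tested, 25.6% were below 0 on both arrays, 27.8% above 0 on both and 46.6% of opposite sign. The 13 probes had a median log2 ratio of -0.18 on array 1 and -0.37 on array 2, and a median mean ratio of -0.45, against 0.00 on each array and as a mean ratio over all probes. The dimmer Trat1 probe passed the filter through CD8+CD122- cells alone. It is therefore left out of the counts by sign and by unadjusted p, and kept among the 19 tested. With the other 5 tested probes of Cd247 and Trat1 added, 14 of 18 were below 0 on both arrays, 0 above 0 on both and 4 of opposite sign. Probes of 1 gene share their target, so these counts are not counts of independent measurements.

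No member passed limma's test. With Benjamini-Hochberg adjustment over all probes, limma called 0 of the 13 probes and 0 of all 19 tested at an adjusted p under 0.05, and 0% of all probes. The smallest adjusted p was 0.656 among the 13, 0.329 among the 19 and 0.146 over the whole array. At an unadjusted p under 0.05 limma found 5 of the 13 and 8 of the 18, where the share over all probes was 6.12%. By size, 1 of the 19 probes, a Trat1 probe, was at least 2-fold lower on both arrays and 0 were at least 2-fold higher, against 0.0812% and 0.253% of all probes. Il2rb, the marker of the sort, had log2 ratios of 2.60 on array 1 and 2.34 on array 2.

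**Figure D1:**
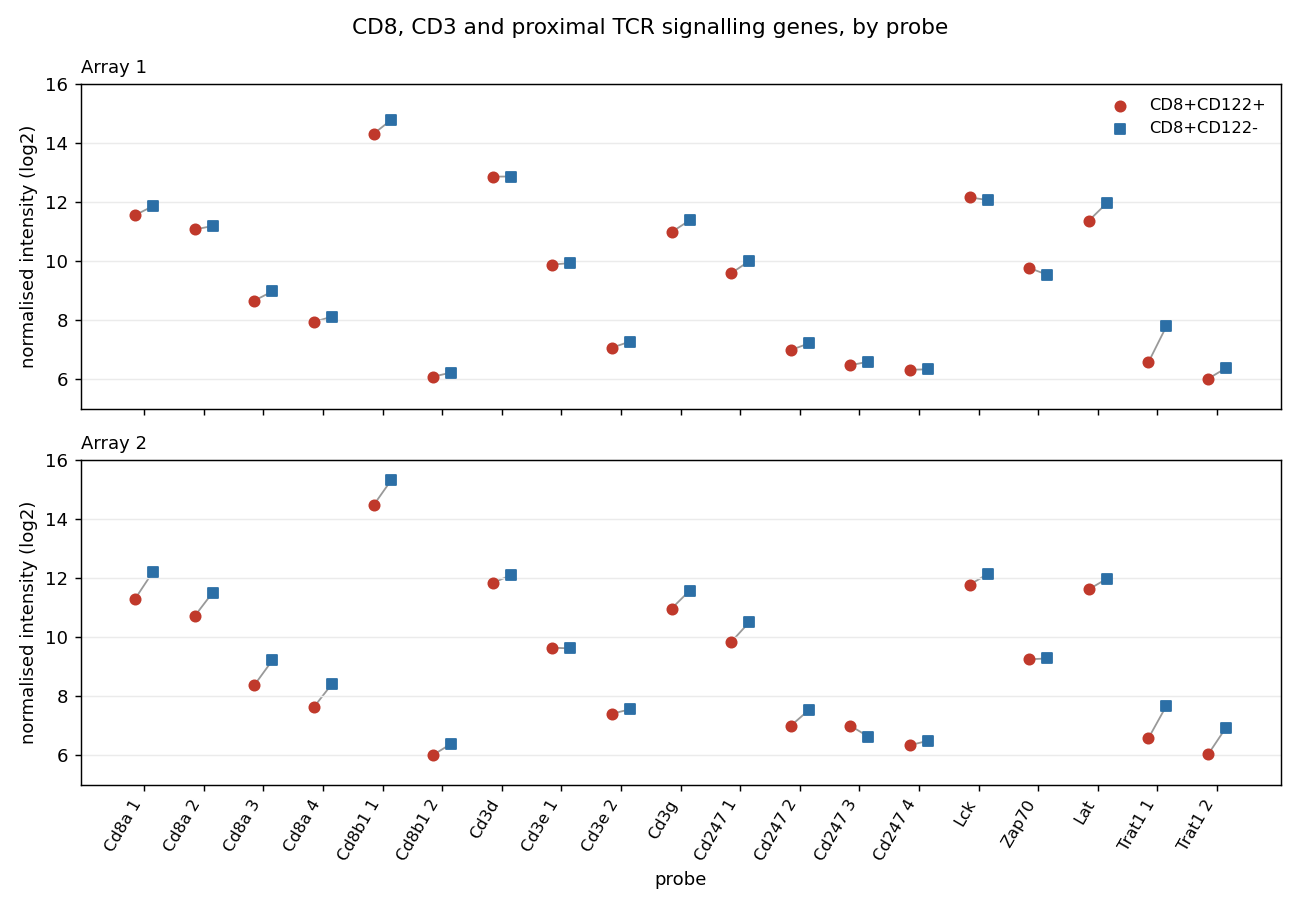
Normalised log2 intensity of each tested probe (horizontal axis, numbered within a gene from brightest to dimmest) on array 1 (upper panel) and array 2 (lower panel). Red circles are CD8+CD122+ cells and blue squares CD8+CD122- cells, joined by a line for each probe. Each point is 1 channel of 1 array; after loess normalisation the red circle is the lower of the pair on both arrays for every Cd8a and Cd8b1 probe, and with median centring 4 of these 6 probes turn above 0 on array 1.

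After loess normalisation both CD8 chains were lower in CD8+CD122+ cells on both arrays by all 6 of their probes, and with median centring 4 of the 6 turned above 0 on array 1. With the signals as processed by the scanner software, the brightest Cd8a probe had ratios of -0.31 on array 1 and -0.92 on array 2. The brightest Cd8b1 probe had -0.48 and -0.90 with those signals. Since both populations were gated on CD8, the sort itself required the protein of at least 1 of these chains. Cd8a, the alpha chain that binds MHC class I, gave log2 intensities on its brightest probe of 11.55 and 11.29 in CD8+CD122+ cells, against 11.86 and 12.21 in CD8+CD122- cells (array 1 and array 2). The populations did not overlap on this probe, but the gap was -0.31 on array 1 and -0.91 on array 2. Its mean ratio was -0.61 ± 0.43 (SD, n = 2 arrays), with a limma adjusted p of 0.814. The other 3 Cd8a probes had the same form, between -0.31 and -0.12 on array 1 and between -0.83 and -0.77 on array 2. One of them has a position in the array file that lies 974.69 kb from the median position of the gene's probes, and its mean ratio was -0.48 ± 0.42 (SD, n = 2 arrays). In the RNA of a whole sorted population, fewer cells with a transcript and less of it per cell cannot be told apart.

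Cd8b1, the beta chain found on conventional CD8 T cells, had log2 intensities of 14.30 and 14.46 in CD8+CD122+ cells, against 14.78 and 15.32 in CD8+CD122- cells. The ratios were -0.48 and -0.86, with a mean of -0.67 ± 0.27 (SD, n = 2 arrays; 1.59-fold lower) and a limma adjusted p of 0.684. A second Cd8b1 probe was dim and gave -0.14 and -0.37, or -0.54 and -1.10 with the signals as processed by the scanner software, which add no offset. The array file places that probe on chromosome 5, where RefSeq has Cd8b1 on chromosome 6, so its value may not be that of Cd8b1. Ordered by mean ratio from the lowest among 30794 probes, the bright Cd8b1 probe was number 201 and the Cd8a probes were numbers 264, 322, 522 and 576.

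Among the CD3 chains, Cd3g had the lowest ratio and Cd3e the one nearest 0 by their brightest probes, and no test compared the chains with each other. Cd3g, the gamma chain, had log2 intensities of 10.98 and 10.96 in CD8+CD122+ cells, against 11.37 and 11.56 in CD8+CD122- cells. Its ratios were -0.39 and -0.60, with a mean of -0.50 ± 0.15 (SD, n = 2 arrays) and a limma adjusted p of 0.656. The gap was wider than the spread within either population on both arrays, but with median centring the ratios were 0.047 and -1.05, so the sign turned on array 1. Cd3d, the delta chain, had 12.85 and 11.83 in CD8+CD122+ cells, against 12.86 and 12.09 in CD8+CD122- cells. Its ratios were -0.00 and -0.26, smaller than the step between the arrays within each population. Cd3e, the epsilon chain, had 9.87 and 9.63 in CD8+CD122+ cells, against 9.93 and 9.61 in CD8+CD122- cells. The mean ratio of that Cd3e probe was -0.01 ± 0.06 (SD, n = 2 arrays), with a 95% interval in limma of -0.22 to 0.19. The dimmer Cd3e probe, which carries that name in the file of array 1 alone, had -0.20 and -0.15.

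Cd3g and Cd3d are neighbours on chromosome 9 and are read in opposite directions from starts 1355 bases apart, and Cd3e starts 27.82 kb beyond Cd3d. Their upstream windows are shown because the starts of this pair lie so close; the ratios of the 2 genes have limma intervals that overlap, -0.77 to -0.22 for Cd3g and -0.44 to 0.18 for Cd3d. RefSeq's promoter table of GRCm38.p6 holds 9 of the 10 genes in 12 windows. The 250 bases before the start are printed 5′ to 3′ on the gene's strand, Cd3g from chr9:44980432-44980681 on the minus strand and Cd3d from chr9:44981536-44981785 on the plus strand.
Cd3g: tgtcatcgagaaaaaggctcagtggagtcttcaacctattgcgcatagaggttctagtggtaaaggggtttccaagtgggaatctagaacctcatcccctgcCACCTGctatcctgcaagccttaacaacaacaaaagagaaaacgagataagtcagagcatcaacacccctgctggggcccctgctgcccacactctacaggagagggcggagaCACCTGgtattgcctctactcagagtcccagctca
Cd3d: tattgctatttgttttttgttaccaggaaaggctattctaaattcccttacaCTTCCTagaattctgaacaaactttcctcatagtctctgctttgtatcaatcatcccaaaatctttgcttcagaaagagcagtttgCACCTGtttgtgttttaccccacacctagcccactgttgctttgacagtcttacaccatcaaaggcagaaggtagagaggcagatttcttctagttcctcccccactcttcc
Capitals mark matches on either strand to the motifs searched. The RUNX core was searched as TGTGGT. For the ETS core the letters were AGGAAG. Of the E-boxes, CAGCTG was searched, which 13% of all windows hold. A further E-box was CACCTG. The TATA box was searched as TATAAA. The Cd3g window holds CACCTG at 148 and 35 bases before the start. The Cd3d window holds CACCTG at 112 bases and AGGAAG, on the other strand, at 198 bases. Of all 32851 windows of this length in the table, 17.22% hold CACCTG and 29.48% hold AGGAAG. No 2 matches overlap in these windows. A match describes the letters and shows no binding.

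Cd247, which encodes the zeta chain, was lower in CD8+CD122+ cells by its brightest probe and uneven by the others. The brightest had log2 intensities of 9.58 and 9.83 in CD8+CD122+ cells, against 9.99 and 10.49 in CD8+CD122- cells. Its ratios were -0.41 and -0.66, with a mean of -0.54 ± 0.18 (SD, n = 2 arrays) and a limma adjusted p of 0.669. A second probe also lay below 0 on both arrays, at -0.22 and -0.53. The third, called 4930549J05Rik in the file of array 2, differed in sign between the arrays, at -0.12 and 0.37. The fourth had -0.01 and -0.15. The fifth probe was not well above background in either population on either array and was not tested; the array file places it on chromosome 14, where RefSeq has Cd247 on chromosome 1. Of the 8 tested probes of the CD3 and zeta chains, 6 were below 0 on both arrays and 2 had opposite signs.

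Neither kinase differed in 1 direction on both arrays after loess normalisation. Lck, the kinase carried by CD8, had log2 intensities of 12.15 and 11.77 in CD8+CD122+ cells, against 12.06 and 12.12 in CD8+CD122- cells. Its ratios were 0.09 and -0.36, with a mean of -0.13 ± 0.32 (SD, n = 2 arrays) and a 95% interval in limma of -0.60 to 0.33. Zap70, the kinase that docks on the phosphorylated CD3 and zeta tails, had 9.76 and 9.24 in CD8+CD122+ cells, against 9.53 and 9.27 in CD8+CD122- cells. Its ratios were 0.23 and -0.03, with a mean of 0.10 ± 0.18 (SD, n = 2 arrays) and an interval of -0.21 to 0.41. With the processed signals of the scanner software Zap70 lay above 0 on both arrays, at 0.24 and 0.0082. These intervals leave room for differences in either direction, so they do not show that the kinases were equal in both populations.

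Both adaptors were lower in CD8+CD122+ cells on both arrays. Lat, the scaffold that ZAP70 phosphorylates, had log2 intensities of 11.36 and 11.61 in CD8+CD122+ cells, against 11.95 and 11.97 in CD8+CD122- cells. Its ratios were -0.59 and -0.36, with a mean of -0.47 ± 0.17 (SD, n = 2 arrays) and a limma adjusted p of 0.690. Lat was thus further below 0 on array 1 than on array 2. Of the 13 probes found by file name, 10 had the lower ratio on array 2, as had 16307 of all 30794 probes tested.

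Trat1 had the lowest ratio of the 10 genes. Its brighter probe gave log2 intensities of 6.57 and 6.57 in CD8+CD122+ cells, against 7.78 and 7.66 in CD8+CD122- cells. The populations stood more than 1 log2 unit apart on both arrays and their spread within a population was far smaller. The ratios were -1.21 and -1.09, with a mean of -1.15 ± 0.09 (SD, n = 2 arrays; 2.22-fold lower), a 95% interval in limma of -1.37 to -0.93 and an adjusted p of 0.329. This probe was number 38 from the lowest of 30794 by mean ratio. Before normalisation its spots had mean signals of 105 and 128 in CD8+CD122+ cells, against 209 and 286 in CD8+CD122- cells, and the scanner software marked each of these 4 channels as well above background. The dimmer probe had ratios of -0.36 and -0.91. It was well above background in CD8+CD122+ cells on 1 of the 2 arrays, array 2, and passed the filter through CD8+CD122- cells, where it is brighter, so it adds no independent support. The offset of 50 added to every signal shrinks the ratios of such dim probes. With the signals as processed by the scanner software, the brighter probe had ratios of -2.12 and -1.77.

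The upstream window of Trat1 is shown because this gene alone among the 10 passed 2-fold on both arrays. It lies at chr16:48772063-48772312 on the minus strand in GRCm38.p6, from RefSeq, and is printed with the same motifs in capitals.
Trat1: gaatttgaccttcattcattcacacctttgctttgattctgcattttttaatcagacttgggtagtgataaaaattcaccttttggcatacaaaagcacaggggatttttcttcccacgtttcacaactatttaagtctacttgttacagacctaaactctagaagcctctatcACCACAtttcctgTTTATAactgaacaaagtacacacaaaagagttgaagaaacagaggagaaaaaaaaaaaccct
It holds TGTGGT on the other strand 76 bases before the start and TATAAA on the other strand 63 bases before it. Of all 32851 windows, 14.05% hold TGTGGT and 12.37% hold TATAAA.

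**Figure D2:**
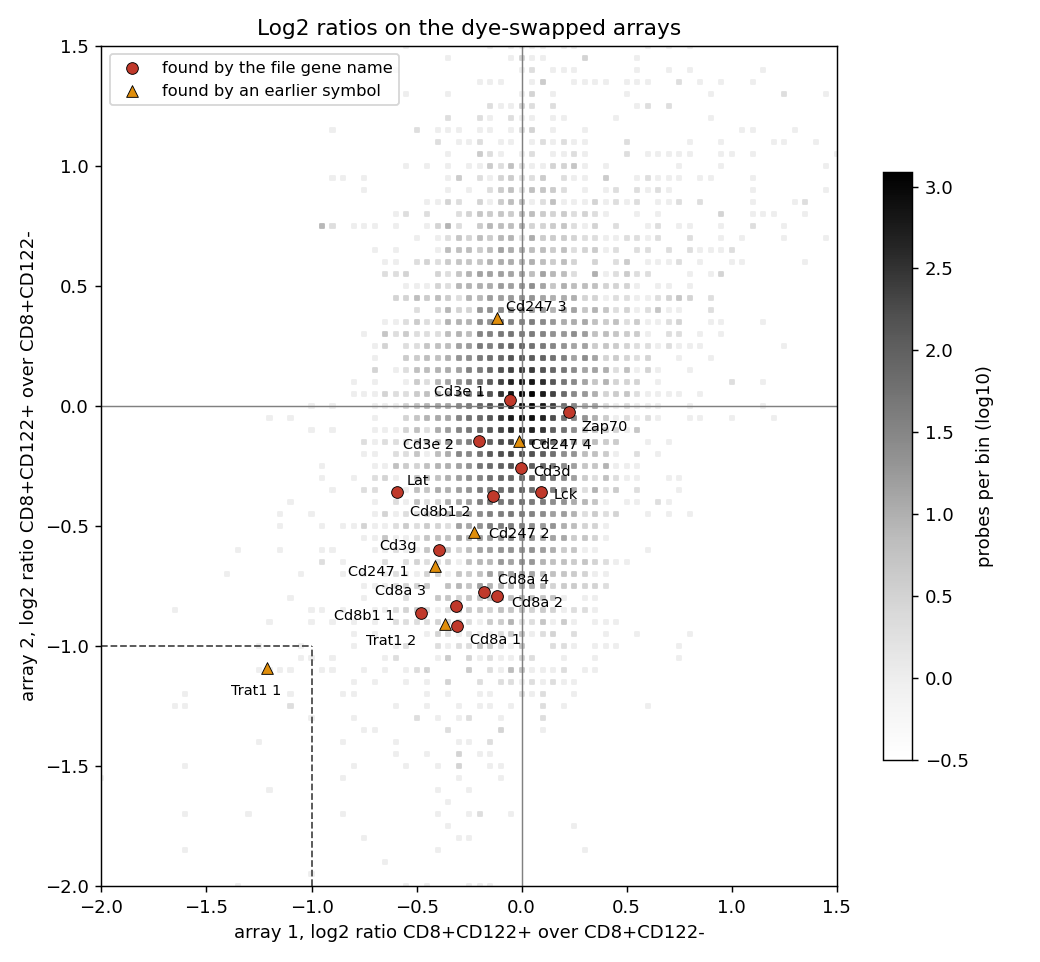
Log2 ratio of CD8+CD122+ over CD8+CD122- on array 1 (horizontal axis) and array 2 (vertical axis). Grey squares are all tested probes in bins shaded by log10 of the number of probes, red circles are members found by file name and orange triangles Cd247 and Trat1 probes; probes beyond the axes are not drawn. The brighter Trat1 probe, at -1.21 and -1.09, is the only member inside the dashed corner of at least 2-fold lower on both arrays, and the Cd8a probes lie lower on array 2 than on array 1.

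The size of the difference in the CD8 chains was not the same on both arrays. All 4 Cd8a probes and both Cd8b1 probes were further below 0 on array 2, and the median of the 6 probes was -0.24 on array 1 and -0.81 on array 2. The array, the dye of each population and the version of the scanner software cannot be told apart here, because each array holds its own combination. Before normalisation, the spots of the brightest Cd8a probe had mean signals of 3299 in CD8+CD122+ cells and 2722 in CD8+CD122- cells on array 1, and of 2255 in CD8+CD122+ cells and 6745 in CD8+CD122- cells on array 2. In these signals CD8+CD122+ RNA was the brighter on array 1 and the dimmer on array 2. The brighter dye was thus Cy5 on both arrays. Loess then fitted the ratio of each array against signal strength. When each array was centred on its median instead, that probe had ratios of 0.18 and -1.37, and Cd8b1 had 0.23 and -1.37. With that centring 4 of the 13 probes were below 0 on both arrays in place of 10, and 9 had opposite signs, with 4 below 0 on array 1 and 13 on array 2. The mean over the dye-swapped pair moved little, to -0.60 for that Cd8a probe and -0.57 for Cd8b1, and 12 of the 13 means were below 0 both ways. The brighter Trat1 probe stayed below 0 on both arrays with the centring, at -1.08 and -1.25, and so did Lat, at -0.11 and -0.82.

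**Figure D3:**
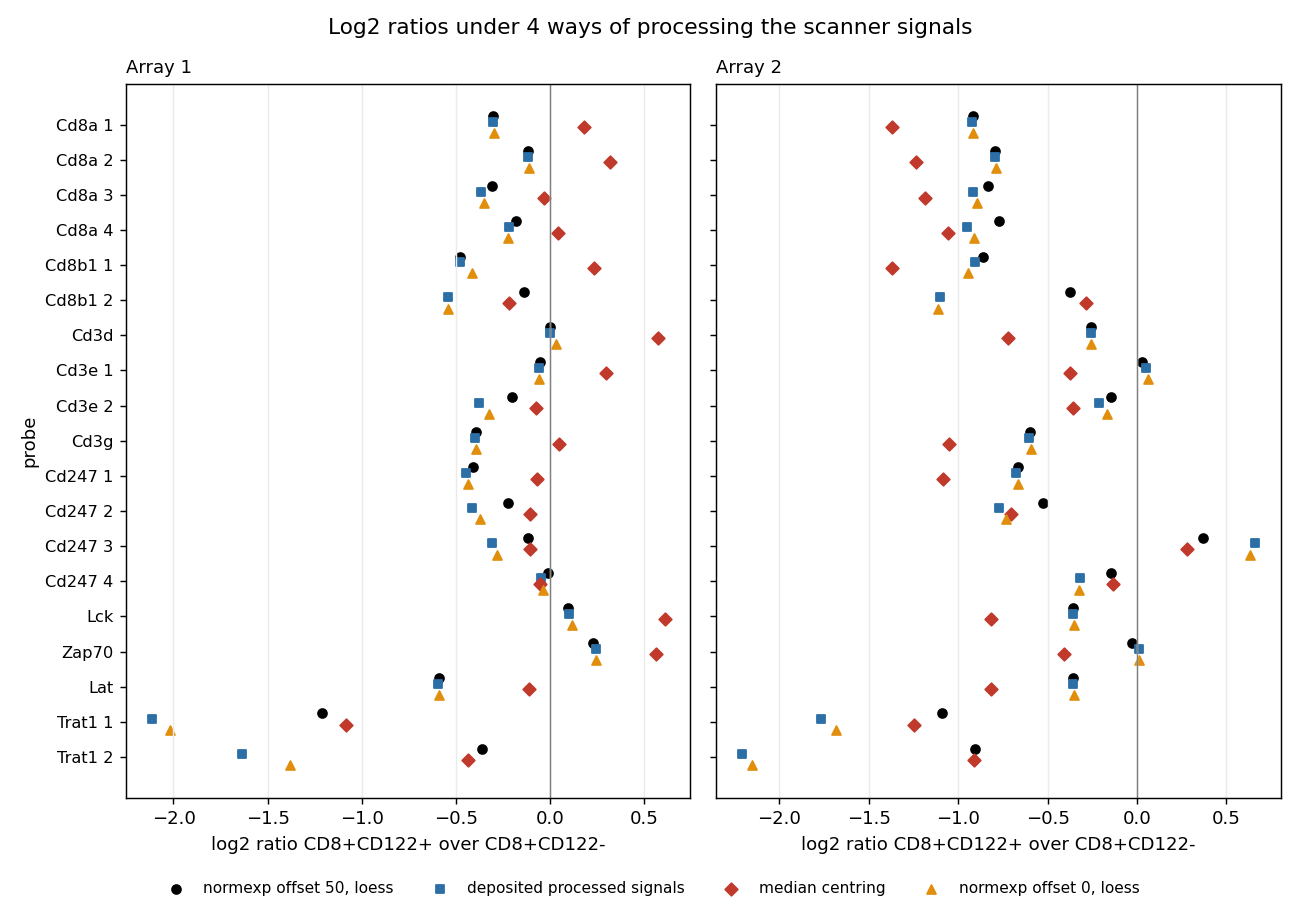
Log2 ratio of CD8+CD122+ over CD8+CD122- (horizontal axes) of each tested probe (vertical axis) on array 1 (left) and array 2 (right) under 4 ways of processing: normexp with offset 50 and loess (black circles), the scanner software's processed signals (blue squares), median centring (red diamonds) and normexp with offset 0 (orange triangles). Median centring moves the bright probes up on array 1 and down on array 2, while the brighter Trat1 probe stays below 0 on both arrays in all 4.

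Other genes of the pathway, by the brightest probe of each, lay on both sides of 0. The lists held 86 genes besides the members, and 77 of them were tested. At least 2-fold on both arrays, 0 were higher and 0 lower, against 0.310% and 0.105% of all 21959 genes. Of the 77 genes, 22 were above 0 on both arrays, 20 below 0 on both and 35 of opposite sign, and the median mean ratio was 0.03. Over all genes 29.1% were above 0 on both arrays, 24.1% below and 46.8% of opposite sign. limma called 0 of the 77 after adjustment and found 15 at an unadjusted p under 0.05, where 6.52% of all genes were found.

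Among 19 kinases, phosphatases and their regulators, 8 had ratios above 0 on both arrays and 3 below. The 3 furthest from 0 were Ptpn2 and Ptpn22, phosphatases that act on TCR kinases, and Ubash3b, which encodes a phosphatase that restrains TCR signalling. Ptpn2 had ratios of 0.61 and 0.77 and a mean of 0.69 ± 0.12, Ptpn22 0.47 and 0.77, and Ubash3b 0.46 and 0.50 (SD, n = 2 arrays). The limma adjusted p-values were 0.551, 0.656 and 0.582. They were named by a rule that requires the same sign on both arrays, so that sign is no further evidence.

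Among 33 adaptors and effectors downstream of ZAP70 and LAT, 6 were above 0 on both arrays and 13 below. Malt1, a protease that works with BCL10, had ratios of 0.73 and 1.02 with a mean of 0.88 ± 0.21 (SD, n = 2 arrays), and its other probe averaged 0.63. Dgka, a kinase that removes the second messenger diacylglycerol, had -0.53 and -0.73 with a mean of -0.63 ± 0.14 (SD, n = 2 arrays), while its other probe averaged -0.04. Bcl10 had 0.03 and 1.15, and its other probe averaged -0.22. Malt1 was therefore the 1 gene of these 3 whose probes had ratios of like size.

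Of 13 surface receptors that tune TCR signals, 3 were above 0 on both arrays and 1 below. Cd28, the costimulatory receptor, had ratios of 0.44 and 1.67, but its other probe averaged 0.11. Cd5, an inhibitory receptor, had 0.36 and 0.70, and Cd6, its relative, 0.13 and 0.72, with its other probe at an average of 0.03. None passed limma, with adjusted p-values of 0.841, 0.718 and 0.858, and the rule that named them requires 1 sign. Cd4, the coreceptor of helper T cells, had 0.09 and -0.12. Cd48, an adhesion receptor named here after its values were seen, had 0.09 and -1.20, a mean of -0.55 that is further from 0 than those of Cd5 and Cd6.

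Of 10 transmembrane adaptors, the list to which Trat1 itself belongs, 4 were above 0 on both arrays and 2 below; the list also holds Clec4n, which encodes a C-type lectin receptor. Hcst, the adaptor of the receptor NKG2D, had ratios of 0.80 and 0.16, Lax1 0.30 and 0.35, and Sit1 0.16 and 0.04. Trat1 was the 1 gene of the list at least 2-fold apart on both arrays. Of 13 symbols listed for TCR chains, 4 had probes under those names. Tcrb-V13 had -0.39 and -0.24, Tcrb-J -0.10 and -0.66 and Tcra 0.08 and 0.09.

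**Figure D4:**
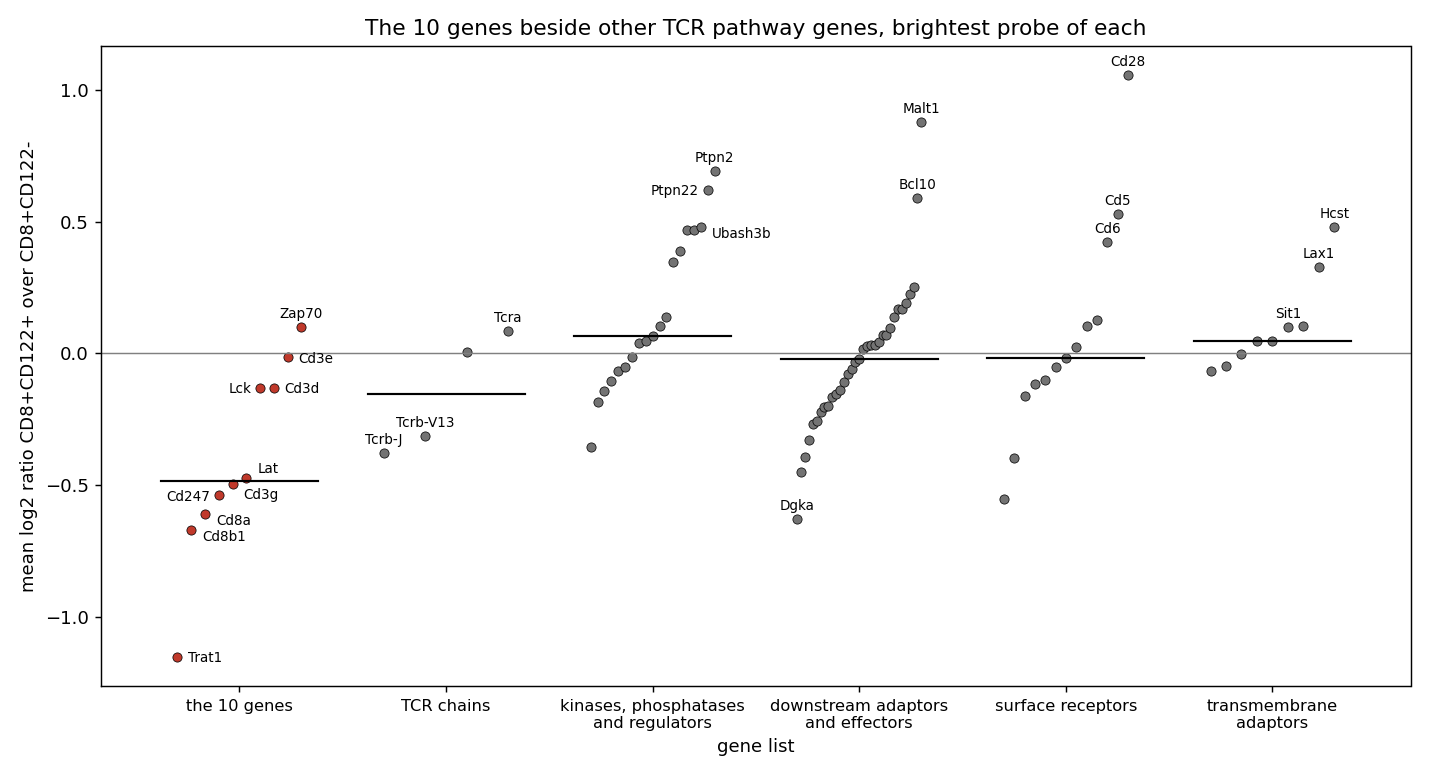
Mean log2 ratio of CD8+CD122+ over CD8+CD122- over both arrays (vertical axis) for the brightest tested probe of each gene, by gene list (horizontal axis), sorted within a list. Red points are the 10 genes, grey points the other pathway genes, and the black bar is each list's median. Trat1 lies lowest of all points at -1.15, and Ptpn2, Malt1 and Cd28 lead their lists.

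Markers of other cells were measured beside these genes. Summed normalised intensities of the B cell list, with all 7 genes tested, were 5299 in CD8+CD122+ cells and 5292 in CD8+CD122- cells on array 1, and 3071 and 4501 on array 2. Cd79b had ratios of -0.20 and -0.76 and Ighm 0.02 and -0.66, so the list was lower in CD8+CD122+ cells on array 2, as the CD8 chains were; its part in the result was not tested. The natural killer list had sums of 936 in CD8+CD122+ cells and 904 in CD8+CD122- cells on array 1 and 824 and 798 on array 2, and its markers Ncr1 and Klri2 were not well above background in either population. The myeloid sums were 999 in CD8+CD122+ cells and 885 in CD8+CD122- cells on array 1 and 1102 and 1021 on array 2, with Lyz2 at ratios of 0.77 and 0.33. The other tested myeloid markers lay nearer 0. Csf1r had 0.07 and 0.08, Cd14 0.05 and 0.05, Cd68 0.04 and 0.00, and Adgre1 0.02 and -0.02. The dendritic sums, a list that matters here because some dendritic cells carry CD8 alpha, were 855 in CD8+CD122+ cells and 850 in CD8+CD122- cells on array 1 and 957 and 929 on array 2. Each sum takes the brightest probe of a gene. For the dendritic marker Itgax that probe had a mean ratio of 0.03, but the other Itgax probe averaged 0.84. Cd209a and Clec9a, 2 of the dendritic markers, were not well above background. The red cell sums were 1542 in CD8+CD122+ cells and 1446 in CD8+CD122- cells on array 1 and 5173 and 4505 on array 2, with all 3 genes above 0 on both arrays, and their part in the result was not tested. The spots well above background made up 76.4% for CD8+CD122+ and 69.5% for CD8+CD122- on array 1, and 80.2% and 83.4% on array 2.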

How the data were processed

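The members and gene lists were chosen with earlier results of these data known. The authors' deposited scanner files give, for every spot, the intensity of its pixels and of its local background, a processed signal per dye, a log10 ratio and flags of 0 or 1. Agilent Feature Extraction made them, per the file headers in version A.7.5.1 (array 1) and 8.1.1.1 (array 2). The deposited value table of log10 ratios equals those of the scanner files within 0.001 in 100% of rows once the sign is turned on array 1, so it runs CD8+CD122- over CD8+CD122+, opposite to the ratios here. Each of its columns has a median of 0, and the sources used here do not say whether it was centred. They name no genome build for the array's positions, so none of those is printed. Mean signals were corrected with normexp (offset 50) and normalised by loess, in which control spots (2256 of 43790) had no weight (limma 3.58.1, R 4.3.3). Outlier spots were left out, saturated ones kept, and spots of a probe averaged. No member was saturated. Levels are per channel after Aquantile. The 30794 probes that were well above background on each array in the same population or in both were fitted with lmFit and eBayes (1 residual degree of freedom, two-sided). The dyes are exchanged between the arrays, so what a dye adds to both is removed in the mean. Probes were named by accession (21848), current symbol (5774) or synonym (4394) through RefSeq's table of GRCm38.p6, and 9158 kept the file's name. Named genes were all members with every probe, Il2rb, Cd4 and, of each pathway list, genes past 2-fold on both arrays or otherwise the 3 of like sign furthest from 0. The steps were tested on simulated data. Alternatives covered background correction, normalisation, filters, saturation, the prior of eBayes, the value table, gene means, and each array alone.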

Additional observations from a re-analysis of the deposited data

How the results depend on the processing

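Under every alternative that used both arrays and a fit over all probes, limma called 0 probes over the whole array, and 0 of 170 repeated tests of single member probes passed, with a smallest adjusted p of 0.244. Median centring cut the members below 0 on both arrays to 4 of 13, against 10, and the probes at least 2-fold lower over the array to 16, against 25. The scanner software's processed signals gave 199 probes at least 2-fold higher and 85 lower, and an offset of 0 gave 182 and 73, against 78 and 25; neither adds 50 to the signals. An offset of 0 also turned the Cd3e probe to 0.0023. With 1 mean per gene, the members' median was -0.30 and 6 of 8 genes were below 0 on both arrays. Each array alone gave a median of -0.37 (array 2) or -0.18 (array 1), 12 or 11 of 13 probes below 0, between 0 and 3 pathway genes 2-fold higher and between 0 and 1 lower, and between 109 and 336 probes higher and 42 and 219 lower over the array. Across the single arrays Cd3e ranged between -0.056 and 0.026, Zap70 between -0.027 and 0.23, Lck between -0.36 and 0.094 and the third Cd247 probe between -0.12 and 0.37, so each has 1 array of the opposite sign to its mean. Each ratio already pairs the populations within an array; a further replicate block or dye term was not run, since it leaves 0 residual degrees of freedom. The bright members lie far above background. They rest on 2 arrays, and the sign of the brightest Cd8a and Cd8b1 probes and Cd3g on array 1 depends on the normalisation. Trat1 and the dim Cd247 and Cd8b1 probes lie near background.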

Other observations

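Probes whose description names a TCR alpha, beta or gamma segment were looked at after their values were seen. All 8 beta probes were tested and all 8 were below 0 on both arrays, with mean ratios between -0.42 and -0.08 and a median of -0.35. Of 17 alpha probes 10 were tested, of which 8 were below 0 on both arrays and 1 above, with a median of -0.12. All 3 gamma probes were tested, and 0 were below 0 on both arrays and 2 above, with a median of 0.04. Over all probes tested, 25.6% were below 0 on both arrays and 27.8% above. The ratios of the segment probes are after loess normalisation and were not looked at with median centring. None of the segment probes was at least 2-fold apart on both arrays. Beta segments share sequence, so their probes can read the same transcripts.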
